A study of Homo sapiens with 6 samples.

Results

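The genes described here are those of the human potassium channels and their auxiliary subunits, taken from ChIP-seq counts per gene in G401 cells. They were chosen by name alone, as every gene whose symbol starts with KCN and ends in a family letter and a number, with at least 1 read in the input libraries. Of 56638 genes in the table, 93 matched by name and 88 had input reads. KCNJ13, KCNMB1, KCNS2, KCNE3 and KCNA6 had 0 counts in all 6 libraries, and the whole span of each is shared with other annotated genes. Ratios over input were read for the 83 genes with at least 100 input counts summed over both treatments. The other 5, KCNA5, KCNF1, KCNA10, KCNV2 and KCNK4, had 76, 68, 50, 70 and 11.

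G401 is an established malignant rhabdoid tumor line that has lost SMARCB1. SMARCB1 had 0 input counts in either treatment, 2 H3K4me3 counts in DMSO and 4 H3K27me3 counts in MAK683. Only 37470 of the 56638 genes had an input count, so 0 input counts alone do not show the loss. One culture condition was DMSO alone and the other MAK683, an EED-binding inhibitor of PRC2, at 3 µM, both for 3 days. Each treatment had 1 library of H3K27me3, 1 of H3K4me3 and 1 of input, the chromatin sequenced without antibody. No comparison therefore has a replicate check, no test was possible, and all intervals below cover counting error only. Library totals lay between 13308099 and 21281877 counts. The study's protocol had a spike-in step that the deposited counts do not carry, so values compare genes within a library, and a loss or gain shared by all genes cannot be read from them.

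Potassium channels let potassium ions leave or enter the cell and thereby set the resting membrane potential and end action potentials. Voltage-gated channels open on depolarization, inward rectifiers and tandem pore channels carry current near rest, and calcium-activated channels open when cytoplasmic calcium is high. Electrically silent subunits form no channel alone but modify those of the Kv2 family, and auxiliary subunits change the gating or trafficking of the pore. Most of these genes are used in excitable, secretory or epithelial cells. H3K27me3 is the repressive mark deposited by PRC2, and H3K4me3 marks active or poised promoters, often at CpG islands.

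Promoter sequences are given for 7 genes that stand at the ends of the patterns described below. They come from the RefSeq promoter table on GRCh38.p14, which holds 250 bases before and 50 after each start and contained 65 of the 88 genes. Each was placed on hg19 by an exact match, and only the longest run outside annotated exons is shown, 5′ to 3′ on the gene's strand, with CpG in capitals. Of the 27305 promoters in the table, 95.8% held a CpG and the median was 14 per 300-base window. KCNJ2 (chr17:68165546-68165672, plus strand) and KCNH2 (chr7:150675410-150675659, minus strand) are shown because H3K4me3 was high and H3K27me3 low. Their windows held 39 CpG each.
KCNJ2: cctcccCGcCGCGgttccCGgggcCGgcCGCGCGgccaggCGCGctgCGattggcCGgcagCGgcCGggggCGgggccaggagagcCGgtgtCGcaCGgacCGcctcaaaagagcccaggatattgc
KCNH2: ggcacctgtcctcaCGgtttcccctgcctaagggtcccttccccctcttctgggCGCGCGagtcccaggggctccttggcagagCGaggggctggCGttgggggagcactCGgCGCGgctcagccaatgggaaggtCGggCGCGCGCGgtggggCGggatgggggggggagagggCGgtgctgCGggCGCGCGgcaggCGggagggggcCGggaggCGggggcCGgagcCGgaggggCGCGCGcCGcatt

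KCNA4 (chr11:30038578-30038827, minus strand), KCNJ10 (chr1:160039951-160040200, minus strand) and KCNK5 (chr6:39197252-39197501, minus strand) are shown because they had high H3K27me3 without high H3K4me3. With 37, 29 and 39 CpG, all 3 windows were CpG-rich too.
KCNA4: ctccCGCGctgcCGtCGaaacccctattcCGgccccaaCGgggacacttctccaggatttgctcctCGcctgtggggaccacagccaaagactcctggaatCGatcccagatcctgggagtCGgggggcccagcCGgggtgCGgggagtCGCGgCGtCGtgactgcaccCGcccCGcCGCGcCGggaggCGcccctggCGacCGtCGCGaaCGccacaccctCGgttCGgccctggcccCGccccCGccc
KCNJ10: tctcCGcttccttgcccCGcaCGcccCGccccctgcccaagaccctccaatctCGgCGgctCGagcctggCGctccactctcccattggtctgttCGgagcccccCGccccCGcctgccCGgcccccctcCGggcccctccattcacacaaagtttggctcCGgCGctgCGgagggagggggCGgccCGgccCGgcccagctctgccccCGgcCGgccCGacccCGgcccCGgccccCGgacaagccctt
KCNK5: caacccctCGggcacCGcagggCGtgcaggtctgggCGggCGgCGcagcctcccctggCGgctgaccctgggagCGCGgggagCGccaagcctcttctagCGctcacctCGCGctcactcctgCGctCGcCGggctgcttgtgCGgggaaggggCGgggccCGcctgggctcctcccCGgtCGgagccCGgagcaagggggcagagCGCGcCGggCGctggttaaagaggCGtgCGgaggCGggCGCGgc

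KCNJ8 (chr12:21927641-21927890, minus strand) is shown because it had the largest relative difference in H3K4me3 between treatments. KCNK16 (chr6:39290745-39290994, minus strand) is shown because it had nearly the H3K27me3 level of KCNA4 and lies close to KCNK5 in the genome. The windows of KCNJ8 and KCNK16 held 16 and 4 CpG, with 61.7% and 48.0% G+C.
KCNJ8: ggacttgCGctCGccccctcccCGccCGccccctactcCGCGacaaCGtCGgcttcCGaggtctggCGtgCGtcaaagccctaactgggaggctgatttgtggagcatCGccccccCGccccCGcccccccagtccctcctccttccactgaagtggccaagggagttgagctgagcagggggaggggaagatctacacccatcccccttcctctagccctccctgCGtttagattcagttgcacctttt
KCNK16: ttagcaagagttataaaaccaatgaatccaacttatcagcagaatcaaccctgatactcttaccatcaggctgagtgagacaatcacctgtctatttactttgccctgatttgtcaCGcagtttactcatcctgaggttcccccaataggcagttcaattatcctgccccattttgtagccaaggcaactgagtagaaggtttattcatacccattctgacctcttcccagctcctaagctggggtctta

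The first question was how much of each modification these genes carried before inhibition. In DMSO, H3K27me3 was at least 2-fold over input at 23 of the 83 genes (27.7%), and at 10.7% of all 21263 genes with as much input (9.11% of protein-coding genes). It was above input at 42 of 83, against 27.3% of all genes. The median log2 ratio of H3K27me3 to input CPM was 0.02 for the potassium channel genes, -0.75 for all genes and -0.84 for protein-coding genes. H3K4me3 was at least 2-fold over input at 9 of the 83 (10.8%), against 24.2% of all genes and 31.2% of protein-coding genes, with a median of -0.54 against -0.25 for all genes. Both modifications reached 2-fold at KCNA3 and KCNK12 (0.56% of all genes) and neither did at 53 genes (65.7% of all genes). Spearman's rho between the modifications was -0.28 across the 83 genes and -0.47 across all genes. Both ratios share the input library, and genes are not independent replicates. Near the 2-fold line (log2 of 1) of H3K27me3, KCNK13 at 1.06 and KCNJ1 at 1.15 lay just inside, and KCNH1 and KCNB2 at 0.93 just outside.

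**Figure D1:**
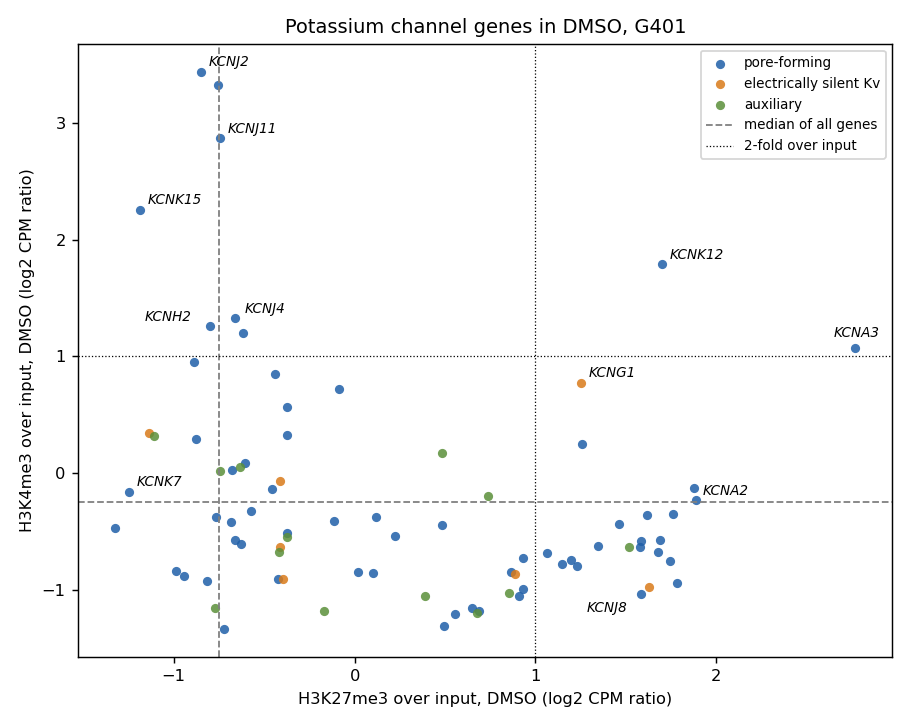
H3K27me3 (x axis) against H3K4me3 (y axis) in DMSO, each as the log2 ratio of ChIP to input CPM, for the 83 potassium channel genes with at least 100 summed input counts. Colors give the role of the protein, dashed lines the medians of all genes and dotted lines 2-fold over input; the 23 genes right of the vertical dotted line lie below the horizontal one except KCNA3 and KCNK12.

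The voltage-gated Kv1 (shaker) genes had the highest H3K27me3 of all families. Of the 5 with enough input, 4 were over 2-fold (10.7% of all genes), with a family median log2 ratio of 1.87. Counts are given for DMSO and then MAK683 throughout. KCNA3, the channel that sets the membrane potential of T lymphocytes, had 45 and 68 input counts, 355 and 248 H3K27me3 counts, and 121 and 173 H3K4me3 counts. Its H3K27me3 over input in DMSO was 2.77 on the log2 scale (95% interval 2.34 to 3.27), the highest value of the 83, and its H3K4me3 was 1.07 (0.58 to 1.62). KCNA2, an axonal channel, had 525 and 578 input counts, 2213 and 1241 for H3K27me3, and 564 and 828 for H3K4me3. KCNA4, a channel that inactivates fast, had 66 and 112 in input, 278 and 160 for H3K27me3, and 76 and 81 for H3K4me3. KCNA2 and KCNA4 lay together at 1.89 and 1.87 with overlapping intervals, so their order is not resolved by the counts. KCNA1, another axonal channel, stood at 1.74 (1.55 to 1.95), but its whole span is shared with other annotated genes. The exception in the family was KCNA7 at -0.88 (-1.52 to -0.29), with 38 and 39 H3K27me3 counts. KCNA5, a channel of the atrial action potential, and KCNA10 had too little input for these counts. Their values were 2.29 (1.82 to 2.83) and 1.62 (1.01 to 2.34), from 226 and 131 H3K27me3 counts on 40 and 36 input counts and from 93 and 41 on 26 and 24. KCNA5 had 34 and 37 H3K4me3 counts and KCNA10 26 and 22, neither of them resolved from input in DMSO.

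The other voltage-gated families carried less. In the Kv4 family, KCND3, a pore of the transient outward current, had 2795 and 3360 input counts, 9494 and 5593 for H3K27me3, and 2281 and 2186 for H3K4me3. Its level was 1.58 (1.52 to 1.64), and neither of the other Kv4 genes reached 2-fold. Among the 5 Kv7 genes only KCNQ3 did so, at 1.23 (1.18 to 1.28), with 4443 and 5290 counts in input, 11845 and 7174 for H3K27me3, and 3239 and 3471 for H3K4me3. In the Kv2 family, KCNB2 stood at 0.93 with 4441 and 5103 input counts, 9644 and 5819 for H3K27me3, and 2823 and 2545 for H3K4me3. None of the 8 ether-a-go-go genes was over 2-fold, and 6 lay below input. Their highest was KCNH1 at 0.93, with 5470 and 6615 input counts, 11881 and 7372 for H3K27me3, and 4162 and 4271 for H3K4me3. The Kv3 genes, which serve fast-spiking neurons, did not reach the input level. The highest was KCNC1 at -0.37, with 643 and 754 input counts, 565 and 370 for H3K27me3, and 1205 and 1213 for H3K4me3, and it shares over 50% of its span with other genes.

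Among the tandem pore channels, which carry background potassium current, 8 of 14 genes were over 2-fold (10.7% of all genes). The family median was 1.21. The 8 were KCNK16, KCNK17, KCNK12, KCNK9, KCNK18, KCNK5, KCNK10 and KCNK13, between 1.06 and 1.78. KCNK16, a channel of the pancreas, had 130 and 123 input counts, 511 and 256 for H3K27me3, and 85 and 88 for H3K4me3. KCNK12 had 112 and 148, 417 and 212, and 492 and 582, which placed H3K27me3 at 1.70 (1.41 to 2.02) and H3K4me3 at 1.79. Because the whole span of KCNK12 is shared with other annotated genes, its reads may not all be its own. At the low end, KCNK7 was at -1.25, KCNK15 at -1.19 and KCNK6 at -0.09. The remaining 3 genes, KCNK3, KCNK2 and KCNK1, stood at 0.48, 0.69 and 0.87.

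Among the inward rectifiers, 5 of 14 were over 2-fold (10.7% of all genes) and the family median was -0.08. The 5 were KCNJ10, the main inward rectifier of astrocytes, KCNJ5 and KCNJ9, which form channels opened by G proteins, KCNJ8, the pore of the vascular ATP-sensitive channel, and KCNJ1 of the kidney tubule. KCNJ10 had 340 and 372 input counts, 1251 and 680 for H3K27me3, and 289 and 251 for H3K4me3, a log2 ratio of 1.69 (1.52 to 1.87) for H3K27me3. The lowest of all 83 genes was KCNJ16 at -1.32, which had 39 and 36 H3K27me3 counts and overlaps other annotated genes over most of its length.

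Of the calcium- and sodium-activated channels, only KCNMA1, the pore of the large-conductance channel, was over 2-fold. It had 7968 and 9538 counts in input, 20760 and 12332 for H3K27me3, and 5988 and 6615 for H3K4me3, and stood at 1.19 (1.16 to 1.23). KCNU1, a channel of sperm, was at the other end at -0.99 (-1.10 to -0.88), with 1833 and 2077 input counts, 1050 and 1017 for H3K27me3, and 1297 and 1559 for H3K4me3. Small- and intermediate-conductance channels had a median of -0.41, and their highest was KCNN2 at 0.10, with 1562 and 1687 counts in input, 1906 and 1474 for H3K27me3, and 1090 and 1396 for H3K4me3.

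By role, H3K27me3 was over 2-fold at 20 of 63 pore genes and 2 of 7 silent subunits (KCNV1 at 1.63 and KCNG1 at 1.25). It was over 2-fold at 1 of 13 auxiliary genes, near the 10.7% of all genes. The differences between these shares were not tested. The auxiliary gene was KCNIP1, a calcium-binding partner of Kv4 channels, with 3675 and 4366 input counts, 11981 and 6945 for H3K27me3, and 2993 and 2966 for H3K4me3. KCNIP2, of the same family, lay near the bottom at -1.11 (-1.47 to -0.78), with 206 and 243 counts in input, 108 and 86 for H3K27me3, and 324 and 331 for H3K4me3. Among the silent subunits, KCNF1 had too little input for the counts above, with 28 and 40 reads, 120 and 69 for H3K27me3, and 87 and 128 for H3K4me3. Both modifications were over input there, at 1.88 (1.31 to 2.56) and 1.27 (0.67 to 1.97). The lowest silent subunit was KCNG3 at -1.14 (-1.34 to -0.95), with 636 and 727 input counts, 328 and 245 for H3K27me3, and 1019 and 925 for H3K4me3. In the remaining auxiliary families no gene reached 2-fold. KCNE4, a single-span subunit, stood at 0.85, with 1690 and 1967 counts in input, 3477 and 2187 for H3K27me3, and 1048 and 1106 for H3K4me3. KCNMB2, a partner of KCNMA1, stood at 0.68, with 1206 and 1433 counts in input, 2197 and 1463 for H3K27me3, and 663 and 684 for H3K4me3. KCNAB1, a cytoplasmic beta subunit, stood at -0.37, with 6321 and 6984 input counts, 5552 and 3642 for H3K27me3, and 5459 and 4961 for H3K4me3. KCNMB2 and KCNAB1 overlap other annotated genes over most of their length.

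**Figure D2:**
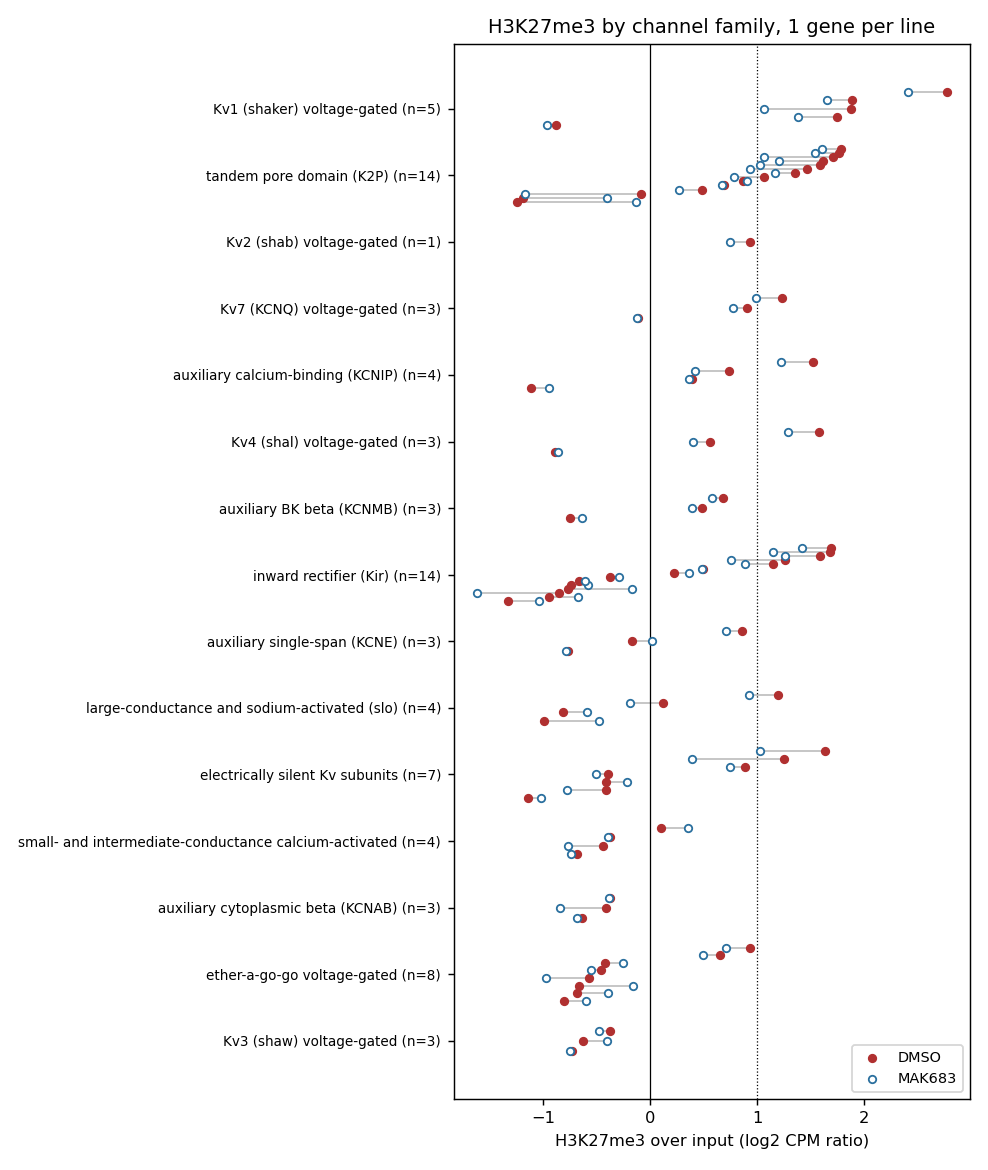
H3K27me3 over input (x axis, log2 ratio of CPM) for the potassium channel genes reported here, by family, with 1 gene per line, filled points for DMSO and open points for MAK683. The solid line is the input level and the dotted line 2-fold over it; in Kv1, 4 of 5 filled points are right of the dotted line and in the tandem pore family 8 of 14, whereas in the ether-a-go-go and Kv3 families none is.

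A small group carried H3K4me3 instead. KCNJ2, the classical inward rectifier of heart and muscle (chr17:68164814-68176185, plus strand), had 135 and 186 input counts, 85 and 41 for H3K27me3, and 1863 and 1304 for H3K4me3. In DMSO its H3K4me3 was 3.44 (3.20 to 3.71) on the log2 scale. KCNJ11, the pore of the ATP-sensitive channel of pancreatic beta cells, was at 2.87 (2.47 to 3.33). It had 52 and 66 input counts, 35 and 30 for H3K27me3, and 487 and 395 for H3K4me3. KCNK15 had 71 and 66 counts in input, 35 and 34 for H3K27me3, and 433 and 318 for H3K4me3, and stood at 2.26 (1.91 to 2.65). KCNJ4 at 1.33 and KCNH2, the repolarizing channel of the heart, at 1.26 also had H3K4me3 over 2-fold and H3K27me3 under input. KCNJ11 shares over 50% of its span with other annotated genes.

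Neighboring genes were set side by side, as 10 pairs lay within 200 kb of each other. KCNA10, KCNA2 and KCNA3 on chromosome 1 stood at 1.62, 1.89 and 2.77, KCNK5, KCNK17 and KCNK16 on chromosome 6 at 1.46, 1.76 and 1.78, KCNJ10 and KCNJ9 on chromosome 1 at 1.69 and 1.26, KCNJ1 and KCNJ5 on chromosome 11 at 1.15 and 1.68, and KCNA1 and KCNA5 on chromosome 12 at 1.74 and 2.29. The pairs on chromosomes 17 and 21 were low or mixed, with KCNJ16 and KCNJ2 at -1.32 and -0.85, KCNE2 and KCNE1 at -0.77 and -0.17, and KCNJ6 and KCNJ15 at 0.22 and -0.77. For KCNK5 and KCNK16 the promoters printed above differ widely in CpG while the intervals of their gene-wide H3K27me3, 1.31 to 1.62 and 1.51 to 2.08, overlap.

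Promoter CpG content was then compared with both levels. A promoter was called CpG-rich with at least 50% G+C and an observed over expected CpG ratio of at least 0.6, which 46.9% of promoters in the table met. Among genes with a CpG-rich promoter, the 32 potassium channel genes had a median H3K27me3 of 0.30 and H3K4me3 of -0.56, whereas all 7995 such genes had -0.94 and 0.60. H3K4me3 was over 2-fold at 2 of the 32 (6.25%) against 39.4% of all, and H3K27me3 at 8 of the 32 against 6.59%. Among genes with other promoters the 28 potassium channel genes lay closer to the 3717 genes in all, with H3K27me3 of -0.37 against -0.51 and H3K4me3 of -0.56 against -0.63. H3K27me3 was over 2-fold at 8 of the 28 (28.6%) against 15.0%, and H3K4me3 at 2 (7.14%) against 14.0%. KCNJ9, KCNK12, KCNH7, KCNE4, KCNU1, KCNB2, KCNV1, KCNQ3, KCNK9, KCNQ1, KCNJ11, KCNA1, KCNH3, KCNMB4, KCNAB3, KCNJ12, KCNK15, KCNS1 and KCNG1 were among those with no entry.

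**Figure D3:**
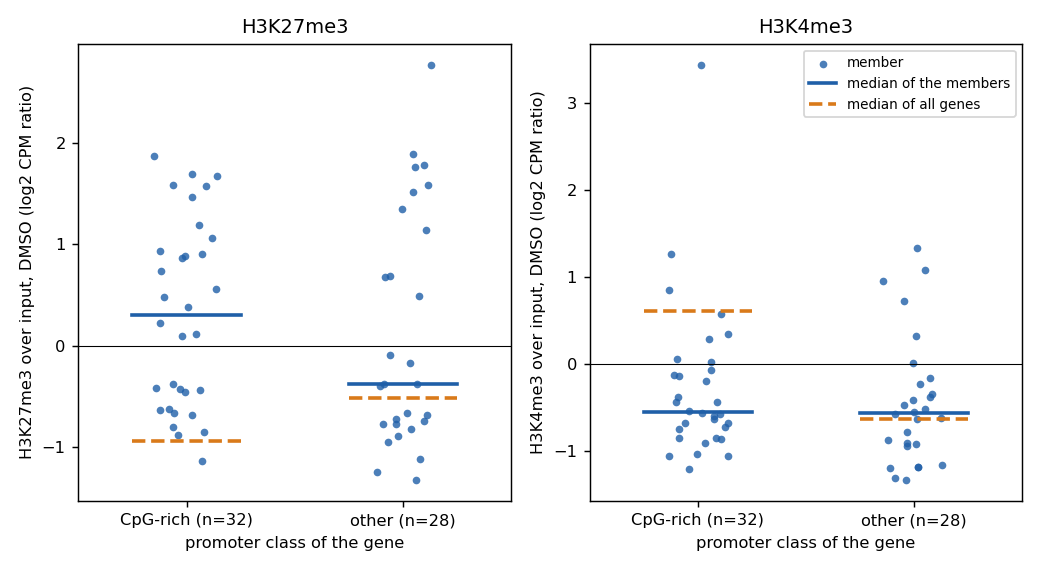
H3K27me3 and H3K4me3 over input in DMSO (y axes, log2 ratio of CPM) for potassium channel genes with a CpG-rich promoter (32 genes) and with another promoter (28 genes). Points are genes, and the lines give the medians of these genes and of all genes of the same class; with CpG-rich promoters the H3K27me3 median of the potassium channel genes is above that of all genes and the H3K4me3 median below it.

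The levels were also read by gene length, as H3K4me3 usually lies near the start of a gene. The median length was 57.5 kb over the 88 potassium channel genes, without a filter on input. It was 36.6 kb over all genes matched by symbol with at least 100 summed input counts. Under 25 kb, 10 of 27 (37.0%) were over 2-fold for H3K27me3 and 5 (18.5%) for H3K4me3, against 10.6% and 51.2% of all genes of that length. At 25 to 100 kb, 5 (22.7%) and 4 (18.2%) of 22 were, against 7.77% and 24.3%. At 100 kb or more, 8 (23.5%) and 0 of 34 were, against 11.6% and 1.52%. H3K27me3 was thus over 2-fold at a larger share of potassium channel genes than of all genes in each length class.

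After MAK683, H3K27me3 was at least 2-fold over input at 16 of the 83 genes (19.3%), against 6.71% of all genes and 5.69% of protein-coding genes, and all 16 were among the 23 of DMSO. The 7 that no longer reached it were KCNQ3 at 0.99, KCNK5 at 0.93, KCNMA1 at 0.92, KCNJ1 at 0.89, KCNK13 at 0.78, KCNJ9 at 0.76 and KCNG1 at 0.39. The median was -0.06, against -0.56 for all genes, and the SD over the 83 genes was 1.02 in DMSO and 0.86 in MAK683. Over all genes the SD was 0.89 and 0.73. These levels carry no spike-in scaling, so a loss shared by all genes does not appear in them. The 16 genes therefore do not show how much H3K27me3 remained. The study, which normalized to its spike-in, reported a massive depletion of H3K27me3 across the genome of MAK683-treated G401 cells. The order of the genes was much the same in both treatments, with a Spearman rho of 0.91 for H3K27me3 and 0.88 for H3K4me3 over 83 genes. H3K4me3 reached 2-fold at 10 genes (22.6% of all genes), the 9 of DMSO and KCND1 at 1.19, which had 138 and 162 counts.

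Changes between treatments were expressed relative to the median of all genes, since the libraries differ in depth and carry no spike-in scaling. That median was -0.44 on the log2 scale for H3K27me3 counts and -0.11 for H3K4me3 counts. The change could be computed for 87 potassium channel genes, each reaching 10 counts in DMSO or MAK683. Of these, 66 had a relative H3K27me3 change below 0, against 50.0% of all genes, and 21 above 0, against 49.9%. The median was -0.17 (quartiles -0.31 and -0.03). In CPM the split was 57 below 0 and 30 above, with a median of -0.08, while 41.9% of all genes were below 0. H3K27me3 was at least 1.5-fold lower at 3 genes (8.9% of all genes) and higher at 2 (9.03%). For H3K4me3 the median was 0.16 (quartiles 0.03 and 0.30), 69 of 87 were above 0 (50.0% of all genes, and also 69 of 87 in CPM), 8 were at least 1.5-fold higher (9.94%) and 0 lower (5.0%). Input differed as well: its log2 CPM ratio of MAK683 to DMSO had a median of 0.10 over the 23 genes with high H3K27me3 and was above 0 at 19 of them, against 0.00 and 50.4% for all genes. Its part in the changes was not tested. With the input ratio subtracted, H3K27me3 was at least 1.5-fold lower at 10 of 83 genes and higher at 2. H3K4me3 was then at least 1.5-fold higher at 4 and lower at 2. The shares of all genes passing 1.5-fold on that scale were not computed, so these counts have no reference.

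The 95% counting interval of the H3K27me3 change lay below the median of all genes at 46 of 87 genes (18.7% of all genes) and above it at 7 (15.9%). For H3K4me3 it lay above at 44 (19.3%) and below at 4 (21.8%). Genes with more reads have narrower intervals. With at least 100 summed input counts the shares of all genes were 21.7% and 19.3% for H3K27me3 and 22.4% and 25.2% for H3K4me3, beside 44, 6, 43 and 4 potassium channel genes. At 24 genes H3K27me3 lay below and H3K4me3 above, against 7.61% of all genes. They include KCNA2, KCNK5, KCNK12, KCNK17, KCNJ5, KCNJ8, KCNQ3, KCNMA1, KCNIP1, KCNV1 and KCNG1.

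Changes were then read by the H3K27me3 level in DMSO. The 23 genes over 2-fold had a median relative change of -0.32 in H3K27me3 and 0.21 in H3K4me3, and all 2278 genes over 2-fold had -0.31 and 0.20. Highly modified potassium channel genes therefore differed between treatments by about as much as other highly modified genes. The 41 potassium channel genes at or below input had -0.05 and 0.12, against 0.12 and -0.06 for all such genes. The DMSO library that defined these classes is also part of the change.

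**Figure D4:**
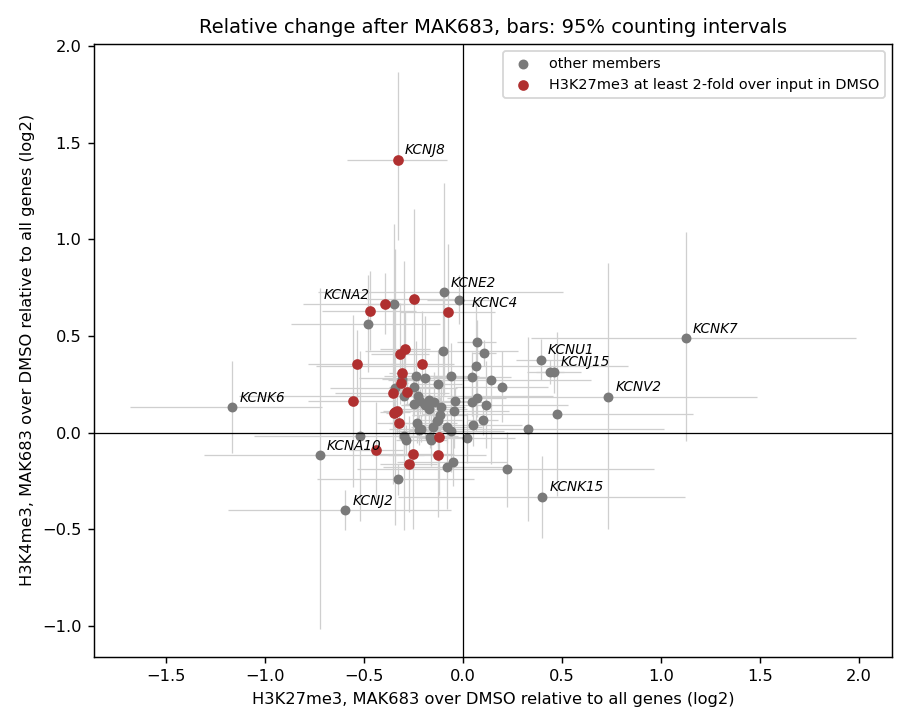
Relative change of H3K27me3 (x axis) against that of H3K4me3 (y axis), each the log2 ratio of MAK683 to DMSO counts minus the median of all genes, for the 87 potassium channel genes with enough counts. Bars are 95% counting intervals from the exact binomial, and red points are the 23 genes with H3K27me3 over 2-fold in DMSO. All red points lie left of 0 on the x axis and 18 of 23 above 0 on the y axis. Of all 2278 genes over 2-fold in DMSO, 97.3% lay below 0 for H3K27me3 and 79.1% above 0 for H3K4me3. The DMSO library that defines the red points is also part of the x value.

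KCNJ8 had the largest H3K4me3 difference. Its counts were 105 and 129 in input, 360 and 211 for H3K27me3, and 64 and 159 for H3K4me3. H3K4me3 was thus under input in DMSO, at -1.04 (-1.52 to -0.59), and at 0.29 (-0.05 to 0.64) in MAK683. Of the H3K4me3 counts, 71.3% (64.9% to 77.1%) were in MAK683, where 48.0% is the median of all genes. The relative change was 1.41 for H3K4me3 and -0.33 (-0.58 to -0.08) for H3K27me3, and 1.32 for H3K4me3 after the input ratio was subtracted. KCNA2 had the same pair of directions, with 0.67 (0.51 to 0.82) for H3K4me3 and -0.39 (-0.50 to -0.29) for H3K27me3. KCNA3 next to it had 0.63 (0.29 to 0.98) for H3K4me3, 0.24 with input subtracted, while its H3K27me3 at -0.08 (-0.32 to 0.16) was not resolved from the median of all genes but stood at -0.46 with input subtracted. KCNV1, a silent subunit, had 110 and 173 input counts, 389 and 241 for H3K27me3, and 70 and 105 for H3K4me3. Its H3K4me3 change was 0.69 (0.25 to 1.16), and 0.24 with input subtracted. KCNG1 stood at 0.63 (0.43 to 0.84), and 0.14 with input subtracted, so the values of both silent subunits depend on the input libraries.

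Among the 8 genes with H3K4me3 at least 1.5-fold higher, KCNC4 and KCNE2 had H3K27me3 under input in DMSO. KCNC4, a Kv3 gene, had 1033 and 1077 counts in input, 761 and 554 for H3K27me3, and 858 and 1279 for H3K4me3. Its change was 0.69 (0.56 to 0.82) for H3K4me3 and -0.02 (-0.18 to 0.14) for H3K27me3. KCNE2, an auxiliary subunit of KCNH2 and KCNQ1, had 86 and 99 input counts, 57 and 39 for H3K27me3, and 48 and 74 for H3K4me3, and changed by 0.73 (0.19 to 1.29) in H3K4me3. KCNE2 lies wholly within spans shared with other genes. KCNF1 was the last of the 8 genes with H3K4me3 at least 1.5-fold higher, at 0.66 (0.27 to 1.08).

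Genes with high H3K4me3 in DMSO also differed. KCNJ2 differed by -0.40 (-0.51 to -0.30), KCNK15 by -0.33 (-0.55 to -0.12) and KCNJ4 by -0.15 (-0.28 to -0.03), with intervals below the median of all genes. With the input ratio subtracted KCNJ2 was at -0.66 and KCNJ4 at -0.15, but KCNK15 at -0.03, so the value of KCNK15 depends on the input libraries. All genes over 2-fold for H3K4me3 in DMSO had a median of -0.19 and the 9 potassium channel genes of that class -0.15. KCNH2 at 0.04 (-0.07 to 0.15) was not resolved from the median of all genes.

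For H3K27me3 the lowest relative change was that of KCNK6, a widely expressed tandem pore channel. It had 141 and 163 counts in input, 151 and 49 for H3K27me3, and 294 and 298 for H3K4me3. H3K27me3 changed by -1.16 (-1.68 to -0.71), from -0.09 over input in DMSO to -1.17 in MAK683, and H3K4me3 by 0.13 (-0.10 to 0.37). KCNA10 followed at -0.72 (-1.31 to -0.20), KCNJ2 at -0.59 (-1.19 to -0.06), KCNK16 at -0.55 (-0.78 to -0.34) and KCNK12 at -0.53 (-0.78 to -0.29). KCNK16 was at -0.28, KCNK12 at -0.73 and KCNJ2 at -0.86 after the input ratio was subtracted. KCNK6 and KCNJ2 were at or below the input level in DMSO, whereas KCNA10, KCNK16 and KCNK12 were well above it.

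At a few genes relative H3K27me3 was higher in MAK683. KCNJ15, an inward rectifier, had 1328 and 1487 input counts, 888 and 900 for H3K27me3, and 1289 and 1484 for H3K4me3. KCNH5, an ether-a-go-go channel, had 4510 and 5309 counts in input, 3240 and 3242 for H3K27me3, and 3835 and 4409 for H3K4me3. Their relative changes were 0.46 (0.32 to 0.60) and 0.44 (0.37 to 0.51), and that of KCNU1 was 0.39 (0.27 to 0.52). In all 3 genes H3K27me3 remained below input in MAK683, at -0.17, -0.16 and -0.48, and H3K4me3 was higher as well, by 0.32, 0.31 and 0.38. The 2 genes at least 1.5-fold higher rest on few reads. KCNK7 had 22 and 36 H3K27me3 counts and KCNV2 30 and 37, with changes of 1.13 (0.35 to 1.99) and 0.73 (0.01 to 1.49).

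**Figure D5:**
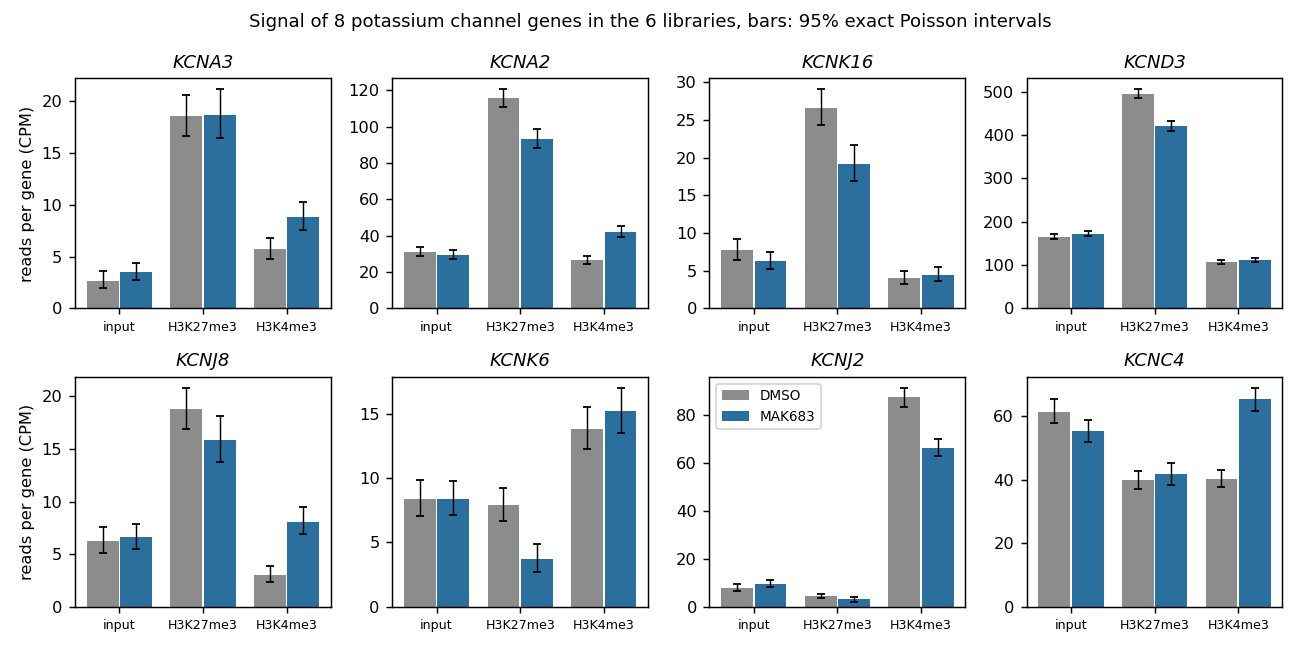
Reads per gene (y axis, CPM) of 8 potassium channel genes in input, H3K27me3 and H3K4me3, in DMSO (grey) and MAK683 (blue), 1 library each; bars on the columns are 95% exact Poisson intervals. H3K4me3 of KCNJ8 is 3.01 CPM in DMSO and 8.10 in MAK683, H3K27me3 of KCNK6 is 7.88 and 3.68, and H3K4me3 of KCNJ2 is 87.5 and 66.4.

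Families differed in their changes within a narrow range. Of all genes, 50.0% lay below 0 for H3K27me3 and 50.0% above 0 for H3K4me3. The H3K27me3 share was 97.3% for all genes over 2-fold in DMSO and 30.7% for those at or below input. Whether families differed apart from their DMSO level was not tested. Relative H3K27me3 changed by a median of -0.34 in Kv1 (below 0 at 6 of 7), -0.27 in the tandem pore family (12 of 14), -0.09 in the inward rectifiers (8 of 14) and -0.05 in the ether-a-go-go family (5 of 8). H3K4me3 was above 0 at 5 of 7, 12 of 14, 7 of 14 and 7 of 8 of the same families, with medians of 0.20, 0.21, -0.01 and 0.13. The silent subunits had -0.21 for H3K27me3 (below 0 at 6 of 9) and 0.24 for H3K4me3 (above 0 at 7 of 9). All 13 auxiliary genes but KCNIP2 had a relative H3K27me3 change below 0.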

How the data were processed

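ChIP-seq of H3K27me3, H3K4me3 and input from G401 cells in DMSO or 3 µM MAK683 was used, with 1 library per treatment and antibody. Per the methods and the submitters' processing notes, reads were trimmed with Trim Galore 0.4.4 and aligned to hg19 with Bowtie2. They were then filtered with Picard 2.23.6. The methods call this step depletion of repeat sequences and, for spike-in reads, mention removal of duplication. The reads left were counted per gene with featureCounts. The authors deposited these whole-number counts for 56638 genes. The gene annotation and the part of the gene counted are not given in the sources used here, and the spike-in normalization was not repeated. RNA-seq, ATAC-seq and bisulfite data were not analysed here.

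Levels were log2((ChIP CPM + 0.05)/(input CPM + 0.05)), for genes with at least 100 summed input counts. The input serves as the reference for copy number and for reads expected from gene length. H3K4me3 levels still depended on length, with 51.2% of all genes under 25 kb over 2-fold and 1.52% at 100 kb or more. Comparisons of H3K4me3 between genes of unlike length are limited by this. Changes were log2((MAK683 + 1)/(DMSO + 1)) minus the median of all genes, for genes reaching 10 counts in either treatment. All genes were computed the same way and set beside the members, and no test was run. Intervals are 95% exact Clopper-Pearson for ratios and exact Poisson for CPM. The computation was tested on simulated data. Positions and overlaps are from GENCODE release 44 on GRCh37, which matched 59.8% of all genes and all 88 members by symbol. KCNJ12 has near-identical copies and is uncertain. All intervals over few reads are wide. For a count of 0, as for KCNK4 in H3K27me3, a fixed floor of 3 counts was set, which is not a limit of these intervals.

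Members given with counts in all libraries were, at a mean of at least 50 counts, the 5 highest and 3 lowest H3K27me3 levels, the 5 highest H3K4me3 levels, the 5 highest and 3 lowest H3K4me3 changes, the 5 lowest and 3 highest H3K27me3 changes, and the top of each family; any other member may be named. Results of some single genes are not reported here, although counts and medians over members include them. Membership rested on name and input reads alone, but the members to name and the lists were chosen with earlier results of these data known. Alternatives were pseudocounts, filters, thresholds, scales, input subtraction and removal of genes that share their span. Python 3.11.15, numpy 2.4.6, pandas 2.3.3, scipy 1.17.1 and matplotlib 3.10.9 were used.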

Additional observations from a re-analysis of the deposited data

How the results depend on the processing

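Of 88 values under an alternative, 70 kept their direction, with counts within 1.5 times of the reported count and medians within the 95% rank interval of the reported median. The number of genes with H3K27me3 over input in MAK683 was 29 at a threshold of 1.5-fold (16 at 2-fold). Their median ratio in MAK683, -0.06, was near 0 and changed sign to 0.15 without the filter on input and to 0.15 without genes that share 50% or more of their span. With counts as deposited, 48 genes were at least 1.5-fold lower and 1 higher in H3K27me3 and 2 higher in H3K4me3. The medians were -0.61 and 0.045. That scale includes the difference in library depth, and the medians of all genes on it were -0.44 and -0.11. With CPM the H3K27me3 median was -0.083. With the input ratio subtracted, 10 genes were lower in H3K27me3, 4 higher and 2 lower in H3K4me3, and the H3K4me3 median was 0.096. At a threshold of 2-fold, 1 gene was lower and 1 higher in H3K27me3 and 1 higher in H3K4me3. With a mean of at least 50 counts 0 were higher in H3K27me3, and 1 was without genes that share their span. Shares of all genes were not computed for these counts under the alternatives, so the counts cannot be read as particular to potassium channel genes. No paired analysis was possible because each treatment had 1 library per antibody, and for the same reason no library could be left out. The depth leaves genes under 100 input counts with intervals wider than most differences described.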

Other observations

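Partner subunits and other cation channels were described by the same measures. Of all genes, 10.7% were over 2-fold for H3K27me3 in DMSO. Of the 6 partner subunits and regulators with enough input, 1 had H3K27me3 over 2-fold in DMSO, LRRC55, a partner of the large-conductance channel, at 1.23. ABCC9, the sulfonylurea receptor that pairs with KCNJ8, stood at 0.65 with 1692 and 1164 H3K27me3 counts on 948 and 1093 input counts, and its relative H3K4me3 change was 0.27. ABCC8, the receptor that pairs with KCNJ11, stood at 0.27, and its H3K4me3 of -0.25 contrasts with the 2.87 of KCNJ11. All 6 had a relative H3K4me3 change above 0, against 50.0% of all genes. DPP6 and DPP10, partners of Kv4 channels, were below input at -0.36 and -0.78.

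Of the 4 HCN channels, which are permeable to sodium and potassium and pace the heart, HCN4 alone was over 2-fold for H3K27me3, at 1.68. It had 1887 and 1036 H3K27me3 counts and 668 and 899 H3K4me3 counts, with relative changes of -0.42 and 0.54. Of 10 voltage-gated calcium channel pores, CACNA1C, CACNA1D and CACNA1E were over 2-fold at 1.47, 1.40 and 1.39, against 10.7% of all genes. All 10 had a relative H3K4me3 change above 0, against 50.0% of all genes and 64.6% of those of 100 kb or more. Of 8 sodium channel pores with enough input, SCN10A was over 2-fold at 1.30. All 8 had a relative H3K27me3 change below 0, against 50.0% of all genes. None of these small counts was tested.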
